A study of Rattus norvegicus with 12 samples.

Results

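In adult rat ventricular myocytes (ARVMs), 10 dual-specificity phosphatase genes were examined: *Dusp1*, *Dusp2*, *Dusp4*, *Dusp5*, *Dusp6*, *Dusp7*, *Dusp8*, and *Dusp10*, which encode mitogen-activated protein kinase (MAPK) phosphatases, and the atypical members *Dusp14* and *Dusp15*. Every transcript listed under these names was taken. The 10 genes contributed 13 of 18752 transcripts, since *Dusp14* has 3 and *Dusp15* has 2 RefSeq transcripts. The 12 samples were ARVMs isolated from hearts of male Sprague Dawley rats and cultured in serum-free medium. In 6 samples, the cells received Ad-h-NR4A2, a virus that expresses human NR4A2 from a cytomegalovirus promoter, and in 6 samples they received Ad-GFP, the control virus carrying enhanced green fluorescent protein. Both viruses were given at a multiplicity of infection (MOI) of 50, and RNA was collected 48 h later. Samples of both groups carry the numbers 24 to 29, and the experiments used cells of different rats. No adrenergic agonist was given to these samples, and all 12 had been exposed to an adenovirus.

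MAPK phosphatases remove phosphate from both the threonine and the tyrosine in the activation loop of ERK, JNK, and p38 kinases, and thereby turn these kinases off. They are commonly grouped by location and substrate. DUSP1, DUSP2, DUSP4, and DUSP5 are inducible nuclear enzymes, DUSP6 and DUSP7 are cytoplasmic and prefer ERK, and DUSP8 and DUSP10 prefer JNK and p38. The atypical enzymes DUSP14 and DUSP15 are small and lack the MAPK-binding domain that the others share. In the heart, ERK, JNK, and p38 take part in growth and stress responses of the myocyte. NR4A2 (NURR1) is an orphan nuclear receptor that can bind DNA as a monomer at an NGFI-B response element (NBRE).

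Values are FPKM, the fragments assigned to a transcript divided by its length and by the sequencing depth, so that levels of different genes can be set beside each other. Log2 fold changes are those of FPKM + 0.1 in Ad-h-NR4A2 over Ad-GFP, with SE, and adjusted p values come from limma with Benjamini-Hochberg adjustment over 11667 transcripts listed above 0 in all 12 samples. A transcript was called upregulated or downregulated when its adjusted p was below 0.05 and its group means differed by 1.5-fold or more. The samples held 18800000 to 28000000 fragments in Ad-GFP and 21500000 to 27300000 in Ad-h-NR4A2. *Nr4a2* was listed at 0.884 ± 0.309 FPKM (SD, n = 6) in Ad-GFP and at 445 to 592 FPKM in the Ad-h-NR4A2 samples. Reads of the human transgene and of rat *Nr4a2* cannot be told apart in that row. Cardiomyocyte markers summed to 16110 to 20780 FPKM in Ad-GFP and 14680 to 17410 FPKM in Ad-h-NR4A2, and of these 6 markers *Myh7* (log2 fold change -0.86, adjusted p = 0.0223) and *Ryr2* (-0.68, adjusted p = 2.00e-04) were called downregulated. At an adjusted p below 0.05 with any fold, 4 of the 6 were lower and 1, *Actn2*, was higher (693 ± 31.2 to 808 ± 56.9 FPKM, log2 fold change 0.22, adjusted p = 0.00387). Of all 11667 transcripts, 6.95% were called downregulated, and with any fold 20.6% were lower and 18.5% higher. The part of the marker changes in the phosphatase values was not tested. In bulk samples, fewer cells of a type and less RNA per cell cannot be told apart.

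*Dusp2* and *Dusp14* were upregulated and *Dusp15* was downregulated, while *Dusp7* and *Dusp8*, the most abundant members, were lower by less than 1.5-fold. All 13 transcripts were above 0 in all 12 samples and were tested, although 3 of them held values far below that of 1 fragment. Of these, 3 were called upregulated (1 of *Dusp2* and 2 of *Dusp14*) and 1 was called downregulated (*Dusp15*), where 7.72% and 6.95% of all 11667 transcripts were called up and down. At an adjusted p below 0.05 with no limit on the fold, 3 were higher and 3 were lower, against 18.5% and 20.6% of all transcripts. The values of the 2 groups did not overlap for 2 transcripts that were higher and 1 that was lower, against 10.5% and 10.1% of all transcripts. The median absolute log2 fold change was 0.40 over the 13 transcripts and 0.20 over all that were tested. The genes were chosen with earlier results of these data known, and the *Dusp14* transcripts share a locus. These counts and medians are therefore no test of the family. Summed over the 10 genes, FPKM was 51.2 ± 5.73 in Ad-GFP and 48.4 ± 4.83 in Ad-h-NR4A2 (SD, n = 6 each).

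**Figure D1:**
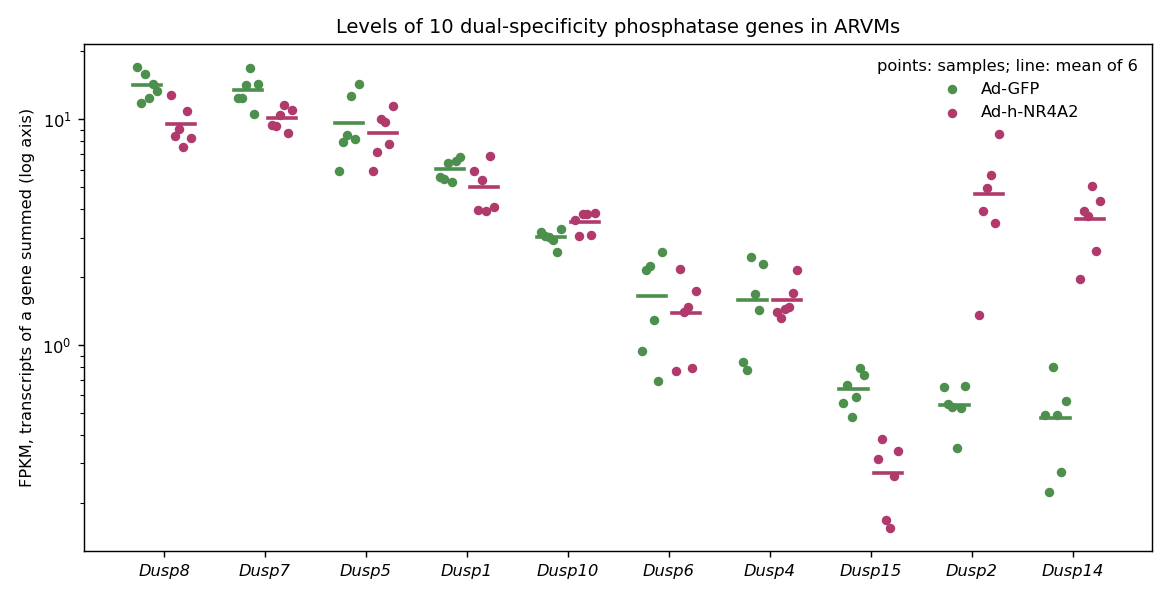
FPKM of the 10 genes on a log axis, transcripts of a gene summed, in order of the Ad-GFP mean. Points are samples and lines are means of 6. *Dusp2* and *Dusp14*, the lowest genes on average in Ad-GFP, lay at 1.36 to 8.64 and 1.97 to 5.05 FPKM in Ad-h-NR4A2.

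The order of the levels differed between the groups. In Ad-GFP, mean FPKM was highest for *Dusp8* (14.2 ± 2.05) and *Dusp7* (13.5 ± 2.18), followed by *Dusp5* (9.60 ± 3.21), *Dusp1* (6.02 ± 0.654), *Dusp10* (3.00 ± 0.235), *Dusp6* (1.65 ± 0.778), *Dusp4* (1.58 ± 0.706), *Dusp15* (0.638 ± 0.118), *Dusp2* (0.544 ± 0.112), and *Dusp14* (0.476 ± 0.210; SD, n = 6). In this order, the samples of neighboring genes were apart only between *Dusp1* and *Dusp10* and, barely, between *Dusp10* and *Dusp6*. The lowest *Dusp10* value (2.594 FPKM) and the highest *Dusp6* value (2.588 FPKM) differed by less than 1 fragment, worth at least 0.0138 FPKM on *Dusp6*. In Ad-h-NR4A2, *Dusp7* (10.1 ± 1.11) and *Dusp8* (9.50 ± 1.97) still led, *Dusp5* and *Dusp1* followed, and *Dusp2* (4.68 ± 2.44) and *Dusp14* (3.61 ± 1.13) came next, at levels that overlapped those of *Dusp1* and *Dusp10*. Neighbors were apart there between *Dusp10* and *Dusp4* and between *Dusp6* and *Dusp15*.

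Promoter windows from RefSeq (rat assembly GRCr8, 250 bases before to 50 bases after a gene start) were found for 9 of the 10 genes, in 11 windows. They are shown for the upregulated genes *Dusp2* and *Dusp14*, and for *Dusp1*, whose window alone held a complete cAMP response element (CRE). Both strands were searched for the NBRE (AAAGGTCA), the CRE (TGACGTCA), and the CRE half-site (TGACG), which is also contained in the CRE. The NBRE was in 0 of the 11 windows and in 1.425% of all 33469 windows. The CRE was in 1 window, of *Dusp1*, and in 1.829% of all windows. The half-site was in 4 windows, 1 each of *Dusp1*, *Dusp2*, *Dusp5*, and *Dusp14*, and in 21.205% of all windows. The 250 upstream bases of these windows are given 5′ to 3′ along the gene, with matches in capitals, for *Dusp1* at chr10:17184603-17184852 (plus strand), *Dusp2* at chr3:135009386-135009635 (plus strand), and the last of 3 *Dusp14* windows at chr10:69452342-69452591 (minus strand).
Dusp1: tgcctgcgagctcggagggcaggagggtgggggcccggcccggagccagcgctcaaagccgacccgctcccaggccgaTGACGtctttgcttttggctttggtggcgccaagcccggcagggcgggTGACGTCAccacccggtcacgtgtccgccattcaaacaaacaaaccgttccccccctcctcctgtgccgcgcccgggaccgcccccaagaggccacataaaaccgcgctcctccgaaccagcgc
Dusp2: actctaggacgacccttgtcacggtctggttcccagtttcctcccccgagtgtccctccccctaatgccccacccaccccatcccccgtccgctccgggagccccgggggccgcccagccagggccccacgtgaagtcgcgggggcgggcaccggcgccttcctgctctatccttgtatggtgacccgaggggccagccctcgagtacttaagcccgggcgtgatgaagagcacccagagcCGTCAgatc
Dusp14: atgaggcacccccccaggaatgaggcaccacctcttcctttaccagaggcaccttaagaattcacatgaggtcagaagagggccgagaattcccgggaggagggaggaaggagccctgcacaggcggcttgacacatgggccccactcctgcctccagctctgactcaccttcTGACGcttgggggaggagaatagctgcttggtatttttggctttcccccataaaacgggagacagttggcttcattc
The first base of the CRE lies at -124 from the *Dusp1* start, and a separate half-site lies at -172. In *Dusp2*, the half-site lies on the opposite strand at -9, and in the *Dusp14* window it lies at -77. These matches are descriptions of the letters in the windows, no binding was measured, and the windows were not matched to single transcripts of the FPKM tables, which use Rn5.

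Among the inducible nuclear phosphatases, only *Dusp2* was called. DUSP2 (PAC-1) dephosphorylates ERK and p38 and is best known from activated lymphocytes. The gene lies at chr3:126303199-126305375 in Rn5. In Ad-GFP, *Dusp2* ranged from 0.351 to 0.659 FPKM with a median of 0.539, and in Ad-h-NR4A2 from 1.36 to 8.64 FPKM with a median of 4.47. All Ad-h-NR4A2 samples were above all Ad-GFP samples. The mean ratio was 8.60 and the log2 fold change 2.72 ± 0.35 (SE; limma, adjusted p = 6.55e-05). An unpaired exact permutation test of the difference gave p = 0.00216 (two-sided, n = 6 per group, not adjusted). This is the smallest value that groups of 6 and 6 allow, and groups without overlap always give it.

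The size of the *Dusp2* change varied between same-numbered samples. It was lowest in sample 24, with a ratio of 2.09, and highest in sample 27, with a ratio of 16.2. Sample 29 held the highest level (8.64 FPKM) and sample 24 the lowest (1.36 FPKM) of the Ad-h-NR4A2 group. The *Dusp2* values rest on few fragments, 13 to 27 in the Ad-GFP samples against 43 to 291 with Ad-h-NR4A2. Lymphocyte markers were at or near 0, with *Cd3d* at 0 in all 12 samples and a sum of 3 listed markers of at most 0.0203 FPKM in Ad-GFP and 0.0478 FPKM in Ad-h-NR4A2.

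The remaining nuclear members did not pass the test. *Dusp1* (MKP-1), an immediate-early gene whose product acts on p38, JNK, and ERK, had a median of 5.98 FPKM (5.30 to 6.83) in Ad-GFP and 4.77 FPKM (3.92 to 6.89) in Ad-h-NR4A2, and a log2 fold change between groups of -0.28 ± 0.14 (SE, limma, adjusted p = 0.151). Its Ad-h-NR4A2 values spread more widely, with samples 25, 27, and 29 between 3.92 and 4.11 FPKM and samples 24, 26, and 28 between 5.42 and 6.89 FPKM. Without Ad-h-NR4A2 sample 28, the adjusted p of *Dusp1* was 0.0372 (limma), at a ratio of 0.776. *Dusp4* (MKP-2) had a median of 1.56 FPKM (0.781 to 2.45) in Ad-GFP and 1.46 FPKM (1.32 to 2.16) in Ad-h-NR4A2 (log2 fold change 0.10 ± 0.27, 95% interval -0.48 to 0.68, adjusted p = 0.802). *Dusp5*, an ERK-selective phosphatase, had a median of 8.36 FPKM (5.93 to 14.4) in Ad-GFP and 8.74 FPKM (5.89 to 11.5) in Ad-h-NR4A2 (log2 fold change -0.12 ± 0.22, 95% interval -0.60 to 0.37, adjusted p = 0.715).

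Of the cytoplasmic ERK phosphatases examined here, *Dusp7* passed the test below 1.5-fold and *Dusp6* did not pass. The difference between the genes was not tested. *Dusp7* (MKP-X), with a median of 13.3 FPKM (10.6 to 16.9) in Ad-GFP, was lower in Ad-h-NR4A2, with a median of 9.97 FPKM (8.75 to 11.6). The highest Ad-h-NR4A2 sample thus lay above the lowest Ad-GFP sample, but the value was lower in 6 of 6 same-numbered pairs, with differences of -5.28 to -1.82 FPKM. On the log2 scale, the change of *Dusp7* was -0.40 ± 0.11 (SE; limma, adjusted p = 0.0111) and the exact permutation p was 0.00649 (n = 6 per group). Since the ratio of means was 0.750, *Dusp7* was not called at 1.5-fold.

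*Dusp6* (MKP-3), whose transcription is a widely used readout of ERK activity, had a median of 1.73 FPKM (0.692 to 2.59) in Ad-GFP and 1.44 FPKM (0.769 to 2.17) in Ad-h-NR4A2. The log2 fold change was -0.18 ± 0.34, with a 95% interval of -0.93 to 0.57 (adjusted p = 0.716). *Dusp6* was lowest in samples 24 and 28 of both groups, at 0.692 to 0.945 FPKM. The same samples had the lowest sums of 6 fibroblast markers, 7.68 and 10.3 FPKM in Ad-GFP and 5.40 and 8.11 FPKM in Ad-h-NR4A2, where the others had 12.1 to 25.8 FPKM. Likewise, 4 endothelial markers summed to 3.97 to 6.06 FPKM in these samples and to 9.88 to 16.3 FPKM in the others. Smooth muscle markers, in contrast, summed to their highest values in sample 24 of both groups (20.2 and 16.5 FPKM, against 6.83 to 12.1 FPKM in the others). The macrophage sum was highest of the Ad-GFP group in sample 28 (17.2 FPKM), but *Csf1r* made up most of it. The other 3 macrophage markers summed to their lowest Ad-GFP value in that sample (0.185 FPKM). In Ad-h-NR4A2, these 3 markers were lowest in sample 27 (0.298 FPKM). The part of nonmyocytes in the *Dusp6* values was not tested.

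**Figure D2:**
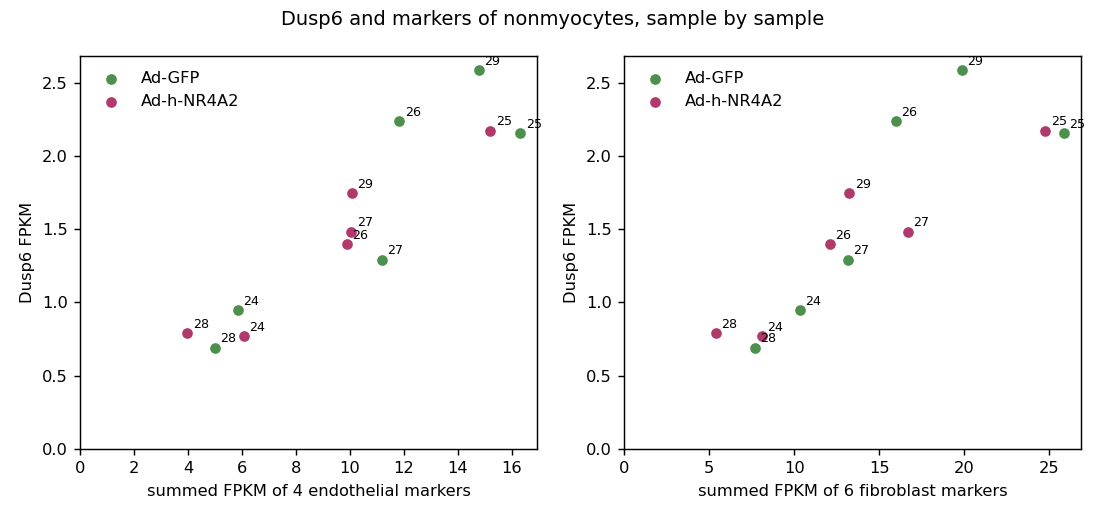
*Dusp6* FPKM (vertical axis) against the summed FPKM of endothelial markers (left) and fibroblast markers (right) in the 12 samples, with sample numbers. Samples 24 and 28 of both groups lie at the lower left, at *Dusp6* values of 0.692 to 0.945 FPKM.

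Of the JNK and p38 phosphatases examined here, *Dusp8* was lower and *Dusp10* lay slightly higher in Ad-h-NR4A2. *Dusp8* (hVH-5), a phosphatase expressed mainly in brain, heart, and muscle, had a median of 13.9 FPKM (11.8 to 17.1) in Ad-GFP and 8.75 FPKM (7.58 to 12.8) in Ad-h-NR4A2. Sample 24 was the highest in both groups, and its Ad-h-NR4A2 value of 12.8 FPKM was the only one above the lowest Ad-GFP sample. The level was lower in 6 of 6 pairs, with differences of -6.91 to -3.32 FPKM. *Dusp8* changed by a log2 of -0.58 ± 0.13 (SE; limma, adjusted p = 0.00444), with an exact permutation p of 0.00649 (n = 6 per group). The ratio of mean FPKM in Ad-GFP over Ad-h-NR4A2 was 1.49, just under the 1.5 required, so that *Dusp8* was not called. It was called on the TPM scale (ratio of Ad-h-NR4A2 over Ad-GFP 0.664) and when Ad-GFP sample 25, 27, or 29 or Ad-h-NR4A2 sample 24 or 28 was left out (log2 fold change -0.67 to -0.59).

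*Dusp10* (MKP-5) had a median of 3.03 FPKM (2.59 to 3.27) in Ad-GFP and 3.70 FPKM (3.05 to 3.84) in Ad-h-NR4A2. The values overlapped, and 5 of 6 pairs were higher in Ad-h-NR4A2. *Dusp10* changed by a log2 of 0.22 ± 0.08 (SE; limma, adjusted p = 0.0537), and with the sample number as a block the adjusted p was 0.0187. It was also below 0.05 with 1 added to FPKM in place of 0.1 (0.0452), with quantile normalization (0.0181), and without the limma trend (0.0367). The same held without Ad-GFP sample 29 (0.0479) or Ad-h-NR4A2 sample 25 (0.0306) or 28 (0.0307). The remaining settings gave values above 0.05. The exact permutation test gave p = 0.026 (n = 6 per group), without adjustment for the number of transcripts. With the block, 5 of the 13 transcripts were higher and 3 were lower at an adjusted p below 0.05, against 25.7% and 30.6% of all transcripts.

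**Figure D3:**
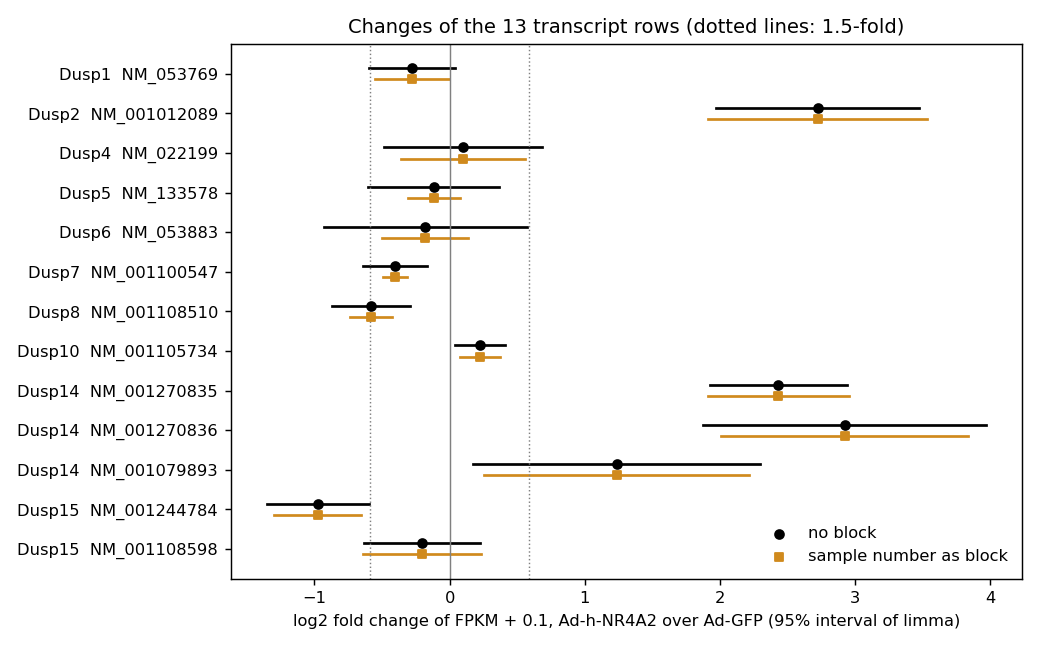
Log2 fold change of FPKM + 0.1 in Ad-h-NR4A2 over Ad-GFP (horizontal axis) for the 13 transcripts, with 95% intervals of limma without a block (black) and with the sample number as a block (orange). Dotted lines mark 1.5-fold. The interval of *Dusp6* without a block runs from -0.93 to 0.57 and with the block from -0.50 to 0.14.

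Much of the spread of several members lay between the sample numbers. With the number as a block, the SE of the log2 fold change went from 0.22 to 0.08 for *Dusp5*, from 0.34 to 0.13 for *Dusp6*, from 0.11 to 0.04 for *Dusp7*, and from 0.13 to 0.07 for *Dusp8*. For *Dusp2* it was 0.35 without and 0.34 with the block. The adjusted p of *Dusp5* and *Dusp6* with the block was 0.261 and 0.291.

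The atypical members *Dusp14* and *Dusp15* changed in opposite directions. DUSP14 (MKP-6) can dephosphorylate ERK and JNK and also acts on the TAK1-TAB1 kinase complex. Its 3 transcripts share the locus chr10:71277396-71297310 (Rn5) and have nearly the same length, 1357 to 1370 nucleotides. Summed over them, *Dusp14* ranged from 0.223 to 0.802 FPKM with a median of 0.493 in Ad-GFP and from 1.97 to 5.05 FPKM with a median of 3.83 in Ad-h-NR4A2. The groups did not overlap, and the same-numbered ratio was highest in sample 25, at 17.6. The log2 fold change of the sum was 2.71 ± 0.27 (SE; adjusted p = 3.47e-06, limma on transcripts summed per gene). The sum stood for 5 to 21 fragments with Ad-GFP and for 51 to 132 with Ad-h-NR4A2.

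The *Dusp14* transcripts differed in how certain their change was. NM_001270835 rose from 0.317 ± 0.132 to 2.11 ± 0.571 FPKM (SD, n = 6), with a log2 fold change of 2.43 ± 0.23 (SE; limma, adjusted p = 6.96e-06) and no overlap between the groups. NM_001270836 was practically 0 in 4 of 6 Ad-GFP samples, with 0.397 FPKM in sample 26 and 0.186 FPKM in sample 29, and reached 0.354 to 1.93 FPKM in Ad-h-NR4A2 (log2 fold change 2.92 ± 0.48, adjusted p = 4.77e-04). Its fitted fold depended on the constant added before the logarithm, with a log2 fold change of 0.98 for a constant of 1 and 5.14 for 0.01. With a constant of 1, the log2 fold change was also smaller for the other low transcripts that were called, at 1.23 for NM_001270835, 1.76 for *Dusp2*, and -0.35 for NM_001244784 of *Dusp15*, and all 4 calls held. NM_001079893 was practically 0 in 4 Ad-GFP samples and 1 Ad-h-NR4A2 sample and otherwise lay at 0.134 to 0.592 FPKM. It did not pass the test (log2 fold change 1.23 ± 0.49, adjusted p = 0.0624), but passed with the sample number as a block (adjusted p = 0.0383) and without Ad-GFP sample 27 or Ad-h-NR4A2 sample 24.

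**Figure D4:**
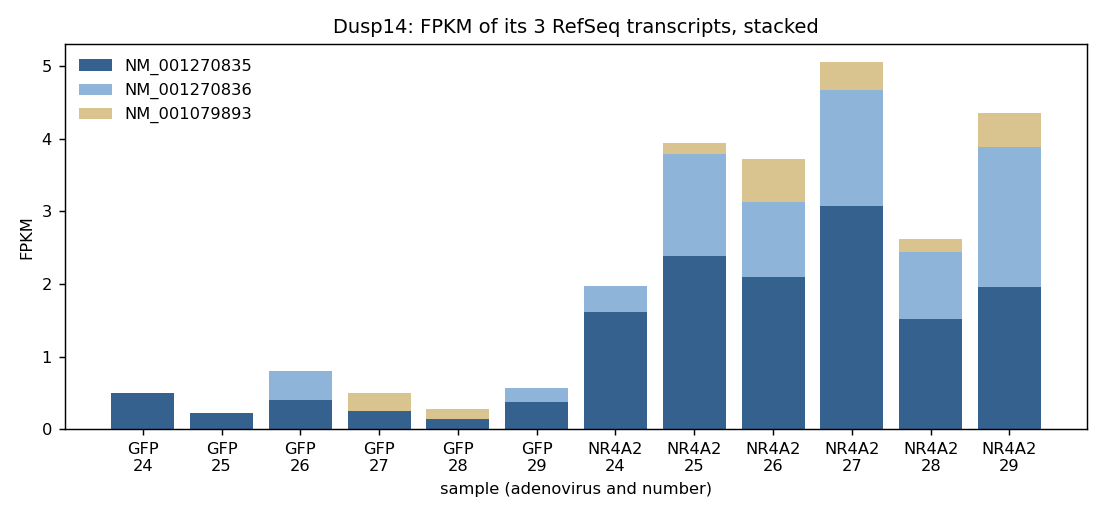
FPKM of the 3 *Dusp14* transcripts (vertical axis), stacked for each of the 12 samples. Bars reach 0.223 to 0.802 FPKM in Ad-GFP and 1.97 to 5.05 FPKM in Ad-h-NR4A2, and NM_001270835 is present in all 12 samples.

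NM_001270835 made up 70.1% ± 23.9 of the summed FPKM in Ad-GFP and 60.4% ± 12.1 in Ad-h-NR4A2 (SD, n = 6), which did not differ beyond the spread (exact permutation p = 0.364). The 3 transcripts lie at one locus and one fragment is worth 0.0295 to 0.0447 FPKM on them, so that values far below this are a division of fragments between transcripts and not whole observations. RefSeq also lists a similar gene, *Dusp14l1*, in GRCr8, and how reads shared with such a copy were counted is not given in the sources used here.

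DUSP15 (VHY) is a small myristoylated phosphatase known mainly from testis and oligodendrocytes. The leading transcript NM_001244784, at chr3:154820983-154831486 (Rn5), ranged from 0.481 to 0.796 FPKM in Ad-GFP and from 0.156 to 0.385 FPKM in Ad-h-NR4A2. All Ad-h-NR4A2 samples were below all Ad-GFP samples. The mean ratio was 0.440 and the log2 fold change -0.98 ± 0.17 (SE; limma, adjusted p = 8.16e-04), with an exact permutation p of 0.00216 (n = 6 per group). The gene was represented by 31 to 64 fragments with Ad-GFP and by 10 to 31 with Ad-h-NR4A2. The other transcript, NM_001108598, had 0.138 FPKM in Ad-GFP sample 29 and at most 0.00201 FPKM in the other samples (adjusted p = 0.449).

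**Figure D5:**
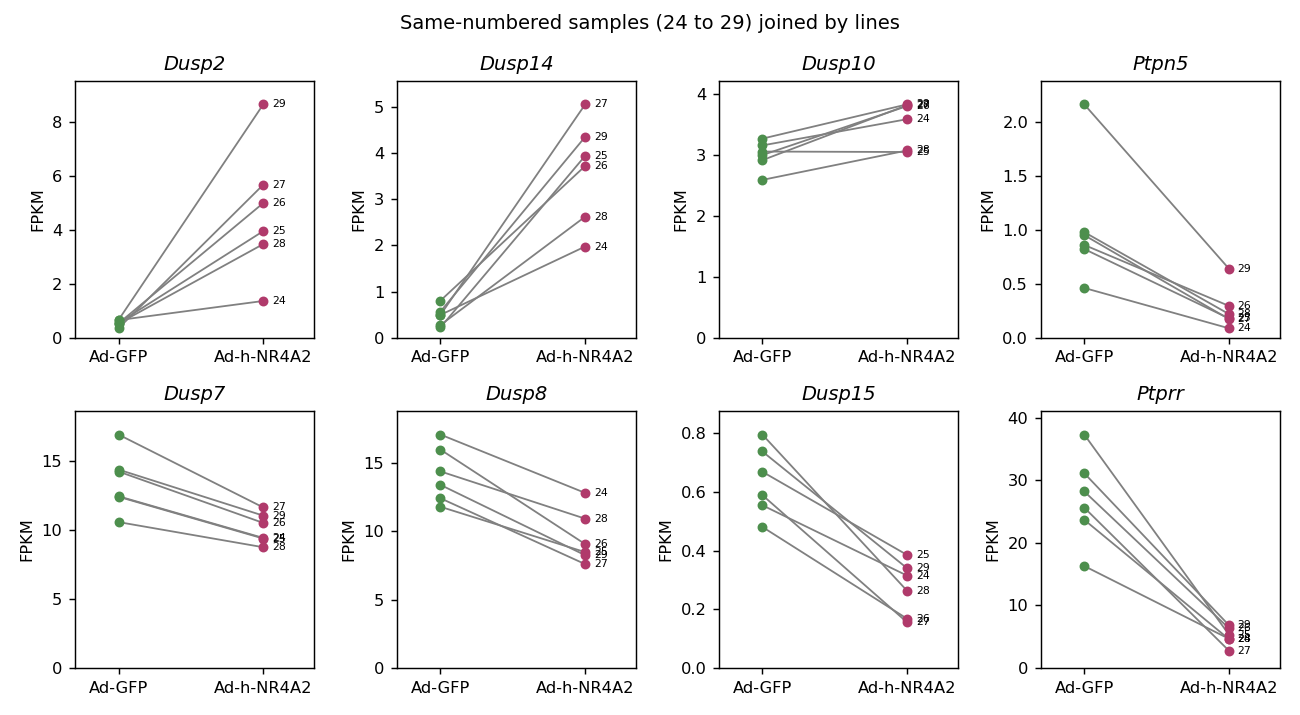
FPKM of 6 phosphatase genes of the family and of the tyrosine phosphatase genes *Ptpn5* and *Ptprr*, with same-numbered Ad-GFP and Ad-h-NR4A2 samples joined by lines and axes starting at 0. *Dusp2* and *Dusp14* were higher in 6 of 6 pairs, and *Dusp7*, *Dusp8*, *Dusp15*, *Ptpn5*, and *Ptprr* were lower in 6 of 6 pairs.

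Of 15 other dual-specificity phosphatase genes, 11 were tested, and limma called 0 upregulated and 1 downregulated, against 7.72% and 6.95% of all transcripts. With any fold, 4 were lower and 0 higher at an adjusted p below 0.05, against 20.6% and 18.5% of all transcripts, and the same counts were found at an unadjusted p below 0.05. The called gene, *Dusp18*, an atypical phosphatase, had 0.495 ± 0.157 FPKM in Ad-GFP and 0.290 ± 0.0496 FPKM in Ad-h-NR4A2 (log2 fold change -0.58 ± 0.16, adjusted p = 0.0151).

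Of 3 genes of tyrosine phosphatases that dock to MAPKs through a kinase interaction motif, *Ptprr* and *Ptpn5* were tested and were called downregulated. Of all transcripts, 6.95% were called downregulated. *Ptpn7* was listed at 0 in 6 of 12 samples and was not tested. *Ptprr*, which encodes a receptor-type phosphatase of ERK and p38, ranged from 16.3 to 37.3 FPKM with a median of 26.9 in Ad-GFP and from 2.74 to 6.81 FPKM with a median of 4.98 in Ad-h-NR4A2. The groups did not overlap. Its log2 fold change was -2.40 ± 0.23 (SE; limma, adjusted p = 7.14e-06), with an exact permutation p of 0.00216 (n = 6 per group). In FPKM, the mean difference of *Ptprr* was -22.0, with -32.0 to -11.6 in single pairs, and those of *Dusp2* and *Dusp14* were 4.14 and 3.13. *Ptpn5* (STEP), known from neurons, had 1.04 ± 0.582 FPKM in Ad-GFP and 0.266 ± 0.196 FPKM in Ad-h-NR4A2 (log2 fold change -1.65 ± 0.35, adjusted p = 0.00278) and was highest in sample 29 of both groups, at 2.17 and 0.640 FPKM. With a constant of 1 its log2 fold change was -0.66.

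Of 13 genes of MAPKs, the substrates of these phosphatases, 7 were tested and limma called 0 at 1.5-fold. Of all transcripts, 7.72% were called up and 6.95% down. At an adjusted p below 0.05 with any fold, 4 were lower and 0 higher, against 20.6% and 18.5% of all transcripts, and 5 were lower at an unadjusted p below 0.05. *Mapk4*, not tested because it was 0 in 1 sample, had 0.0831 ± 0.0435 FPKM in Ad-GFP and 0.0246 ± 0.0171 FPKM in Ad-h-NR4A2, and was called downregulated with no filter on low values (adjusted p = 0.0287, limma). *Mapk3* (ERK1) went from 43.5 ± 1.05 to 37.9 ± 0.940 FPKM (SD, n = 6; log2 fold change -0.20 ± 0.03, adjusted p = 9.68e-05). *Mapk14* (p38α) went from 30.6 ± 1.31 to 24.5 ± 1.85 FPKM (log2 fold change -0.32 ± 0.05, adjusted p = 4.14e-04). *Mapk8* (JNK1) did not pass the test, with 13.3 ± 0.910 and 12.7 ± 0.457 FPKM (adjusted p = 0.352).

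Of 7 MAPK kinase genes, 6 were tested, and *Map2k4* (MKK4), which activates JNK and p38, was called upregulated, against 7.72% of all transcripts. The *Map2k4* level was 38.8 ± 1.76 FPKM in Ad-GFP and 58.6 ± 7.41 FPKM in Ad-h-NR4A2, higher in 6 of 6 pairs (log2 fold change 0.59 ± 0.08, adjusted p = 7.41e-05). The ratio of 1.51 lay at the limit, and it was under 1.5 on the TPM scale (1.49) and without Ad-GFP sample 28 (1.49) or Ad-h-NR4A2 sample 27 or 29 (1.47 each).

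Genes whose transcription is known to follow ERK activity went both ways. Of 22 genes, 21 were tested, 4 were called upregulated, and 4 were called downregulated, against 7.72% and 6.95% of all transcripts. Those upregulated were *Ier3*, an immediate-early gene (61.4 to 97.7 FPKM in Ad-GFP and 195 to 369 FPKM in Ad-h-NR4A2, log2 fold change 1.97 ± 0.15), *Spry1*, a feedback inhibitor of receptor tyrosine kinase signaling (0.97 ± 0.18), *Phlda1* (0.78 ± 0.21), and the transcription factor gene *Myc* (0.77 ± 0.12; SE). Those downregulated were *Etv5*, an ETS factor gene (3.49 ± 1.20 to 1.59 ± 0.417 FPKM, log2 fold change -1.05 ± 0.24), *Spred1*, an inhibitor of Ras-ERK signaling (-1.04 ± 0.11), *Fosl1*, an AP-1 subunit gene (-0.86 ± 0.29), and *Egr2* (-0.50 ± 0.10), which was at most 0.169 FPKM in any sample. For *Fosl1*, the adjusted p of 0.0324 became 0.0579 to 0.0689 without Ad-GFP sample 26, 27, 28, or 29 or Ad-h-NR4A2 sample 24, 25, or 27. With the sample number as a block, *Spry4* was also called downregulated (ratio 0.610, adjusted p = 0.00837, against 0.110 without it). The median log2 fold change of the 21 genes was -0.04, against -0.02 over all transcripts tested.

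Markers of other cells summed to far less than the cardiomyocyte markers in all samples. Apart from the lymphocyte markers, each list summed to more than the *Dusp6* level in every sample. The 6 fibroblast markers summed to at most 25.8 FPKM, 4 endothelial markers to at most 16.3 FPKM, and 3 smooth muscle markers to at most 20.2 FPKM, with overlapping ranges in the 2 groups. Of the fibroblast markers, *Col1a2* was listed at 0 in all 12 samples, which can also be a failed estimate, and the other 5 were above 0 in all samples (*Vim* at 4.27 to 21.6 FPKM, *Col1a1* at 0.191 to 0.874 FPKM). *Myh11*, a smooth muscle marker, was called downregulated (log2 fold change -0.61, adjusted p = 0.00392, limma). With the sample number as a block, *Col1a1* was also called (ratio 0.612, adjusted p = 0.00973), and *Pdgfra* (ratio 0.673, adjusted p = 0.00615) and *Kdr* (ratio 0.687, adjusted p = 0.0104) were lower with less than 1.5-fold. The part of these shifts in the phosphatase values was not tested. The sum of 4 macrophage markers was 5.95 to 17.2 FPKM in Ad-GFP and 37.1 to 44.2 FPKM in Ad-h-NR4A2. This difference lay in *Csf1r*, the receptor of macrophage colony-stimulating factor, which went from 10.1 ± 3.87 to 40.2 ± 2.35 FPKM, while the other 3 markers summed to 0.185 to 0.754 and 0.298 to 0.807 FPKM.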

How the data were processed

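Polyadenylated RNA of 12 ARVM samples was sequenced with a stranded kit in 1 pooled paired-end run. Per the paper's methods, STAR placed the reads on Rn5, and the authors made the deposited FPKM values of RefSeq transcripts with a Cufflinks workflow. The version of STAR is not given in the sources used here. The deposited FPKM were used without further scaling. Groups came from the sample labels. Log2(FPKM + 0.1) of each transcript above 0 in all samples was fitted with limma 3.58.1 (lmFit, eBayes with trend) in R 4.3.3, two-sided and without a block, and adjusted after Benjamini and Hochberg. Single transcripts were also compared by two-sided exact permutation tests of the mean log2 value, which did not use the sample numbers. Their p values were not adjusted for the number of transcripts, and groups without overlap always give the smallest one. Exact tests used NumPy 2.4.6 in Python 3.11.15, with pandas 2.3.3 for tables and Matplotlib 3.10.9 for plots. The fit was also run on data simulated with independent samples, which lack the shared deviations of same-numbered samples described below.

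Fragments were recovered from FPKM, transcript length, and the step between low values (99.2% to 99.8% of low values were whole within 0.05 of a fragment) and cover counting error only. FPKM below 0.001 is described as practically 0. Same-numbered samples deviated together (correlations of 0.274 to 0.508, and at most 0.163 between other numbers), so that the number was taken as pairing the samples in an alternative fit with a replicate block.

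The genes and lists were chosen with earlier results of these data known. All 13 transcripts of the 10 genes are named. Of the other lists, the most abundant transcript stood for each gene, and the genes called, *Nr4a2*, *Mapk3*, *Mapk8*, and *Mapk14* are named. A further gene covered by this rule is not reported here. *Actn2*, *Vim*, *Col1a1*, *Col1a2*, *Pdgfra*, *Kdr*, *Cd3d*, *Spry4*, *Mapk4*, *Ptpn7*, and *Egr3* were singled out after their values were seen. Alternatives were pseudocounts of 1 and 0.01, other filters, the TPM scale, quantile normalization, no trend, the block, 1 transcript or the summed transcripts per gene, and each sample left out in turn.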

Additional observations from a re-analysis of the deposited data

Results flagged for a closer look

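In 7 of 64 groups of 6 values, 1 sample lay far from the others by Dixon's test at the 95% level, which chance gives in about 1 of 20 groups. Of these, 4 come from the minor *Dusp15* transcript NM_001108598. Its highest value was 0.138 FPKM in Ad-GFP sample 29 and 0.00201 FPKM in Ad-h-NR4A2 sample 28, with the other samples practically 0. The share of the leading *Dusp15* transcript was accordingly lowest in these samples, at 81.3% and 99.2%. In Ad-GFP sample 29, *Ptpn5* was highest at 2.17 FPKM, where the next sample had 0.981 FPKM. *Mapk8* was highest in Ad-GFP sample 27 at 15.1 FPKM, and *Egr2* was lowest in Ad-GFP sample 28 at 0.105 FPKM.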

How the results depend on the processing

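The number of transcripts called was 1712, and it stayed within 1.5 times this number under all 22 alternatives (1582 to 1824 with a sample left out). Of the 13 phosphatase transcripts, 4 were called, and 4 to 6 with a sample left out. With a mean FPKM of at least 1 required, only 2 were called, since the filter removed NM_001244784 of *Dusp15* and 3 others, including NM_001270836 of *Dusp14*. With a replicate block for the sample number, 1888 transcripts were called, 5 of them of the 10 genes, and the block changed the call of no phosphatase transcript other than NM_001079893 of *Dusp14*. With a sample left out, 4 values changed sign, none of them past the threshold: the log2 fold change of *Dusp4* (-0.063 to 0.24, and below 0 without Ad-GFP sample 24, at -0.04, or 25), and, without Ad-GFP sample 29, those of *Dusp5* (-0.24 to 0.011) and of NM_001108598 of *Dusp15* (-0.25 to 0.0045) and the difference in share of the leading *Dusp15* transcript (-0.126 to 3.61 percentage points). In no setting did *Dusp2* or NM_001270835 of *Dusp14* lose its call. The filter of 1 FPKM, a mean over all 12 samples, is no check of these 2 transcripts. Their Ad-GFP means were 0.544 and 0.317 FPKM, and they passed only through Ad-h-NR4A2 (4.68 and 2.11 FPKM). The same alternatives were run for the other lists after seeing the data. With no filter on low values, *Fosl1* was no longer called (adjusted p = 0.0667, limma) and *Egr3* and *Mapk4*, not tested otherwise, were called lower (log2 fold change -0.76 and -0.53). The filter of 1 FPKM removed *Dusp18*, *Ptpn5*, and *Egr2*. The median log2 fold change of all transcripts was -0.02, -0.04 on the TPM scale, and -0.03 with quantile normalization. *Dusp2*, *Dusp14*, and *Dusp15* had at most 64 fragments per Ad-GFP sample, and *Dusp4* had 15 to 66.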
